A study of Mus musculus with 6 samples.

Results

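Integrins are the transmembrane receptors, each built from an alpha and a beta subunit, that hold cells to the extracellular matrix. The genes described here are the 26 integrin subunit genes of the mouse (18 alpha and 8 beta) and 12 genes of the focal adhesion, the protein complex that ties the integrin tail to actin: Tln1, Vcl, Pxn, Ilk, Ptk2, Zyx, Parva, Fermt2, Actn1, Actn4, Bcar1 and Lims1. They were chosen by gene symbol and make up 38 of 21887 protein-coding genes. Their binding by COUP-TFII, the nuclear receptor encoded by Nr2f2, was read from chromatin immunoprecipitation followed by sequencing (ChIP-seq).

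All chromatin came from pooled mesonephroi of the outbred mouse strain CD-1 at E14.5, with no genetic change or treatment named in the labels. The mesonephros lies beside the fetal gonad and holds the Wolffian and Müllerian ducts in mesenchyme. COUP-TFII was precipitated with a rabbit antibody from 2 samples of XX (female) and 2 of XY (male) mesonephroi, and 2 further samples are input pooled from XX and XY. The data are the authors' list of peaks for each sex, with 11175 female and 9846 male peaks, each 300 bp wide and known only by its position on mm10. A single list stands for the 2 samples of a sex, so values carry no replicate error, the depth is unknown, and no test compares the sexes. Intervals cover counting error only. The labels do not say whether the 2 samples of a sex are separate pools. The protocol text of the labels names RUNX1 and fetal ovaries, against the COUP-TFII and mesonephroi of the titles, tissue and antibody, which were followed. Peak positions carry no expression, so the tissue could not be checked against marker genes.

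As background, an integrin is switched on when talin (Tln1) and kindlin (Fermt2) bind the tail of its beta subunit. ILK, PINCH (Lims1) and parvin (Parva) then form a complex on the tail, focal adhesion kinase (Ptk2) signals through the scaffolds paxillin (Pxn) and p130Cas (Bcar1), and vinculin (Vcl), the alpha-actinins (Actn1, Actn4) and zyxin (Zyx) attach and reinforce actin. Mesenchymal cells mostly use integrins that bind fibronectin, other ligands with an Arg-Gly-Asp (RGD) motif or collagen. Leukocytes use a set of their own, and epithelia rest on laminin through alpha 3, alpha 6 and beta 4.

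The sequences that bear on the peaks most directly are the stretches just before those gene starts that a peak covers. Below are the 250 bases before the RefSeq start of Itgav and Itga8, where a peak of both lists lies on the start, of Itga11, with a male-only peak, of Zyx, with a female-only peak, and of the leukocyte gene Itgam, with no peak, for contrast. They are reference sequence of GRCm38.p6 from RefSeq, given 5′ to 3′ on the gene's strand, and capitals mark bases under a peak of either list.
Itgav (chr2:83724147-83724396, plus strand): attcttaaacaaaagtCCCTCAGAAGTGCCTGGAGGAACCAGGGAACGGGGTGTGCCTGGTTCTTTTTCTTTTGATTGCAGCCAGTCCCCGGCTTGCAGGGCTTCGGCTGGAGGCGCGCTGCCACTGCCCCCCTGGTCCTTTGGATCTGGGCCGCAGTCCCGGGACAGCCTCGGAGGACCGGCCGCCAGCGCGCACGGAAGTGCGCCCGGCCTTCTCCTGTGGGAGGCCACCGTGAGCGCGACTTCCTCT
Itga8 (chr2:12301945-12302194, minus strand): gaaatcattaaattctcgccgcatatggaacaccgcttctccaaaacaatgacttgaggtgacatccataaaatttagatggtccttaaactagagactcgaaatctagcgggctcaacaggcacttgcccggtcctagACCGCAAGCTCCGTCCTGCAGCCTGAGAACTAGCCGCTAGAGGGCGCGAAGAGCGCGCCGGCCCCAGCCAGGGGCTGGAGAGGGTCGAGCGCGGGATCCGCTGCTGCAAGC
Itga11 (chr9:62677605-62677854, plus strand): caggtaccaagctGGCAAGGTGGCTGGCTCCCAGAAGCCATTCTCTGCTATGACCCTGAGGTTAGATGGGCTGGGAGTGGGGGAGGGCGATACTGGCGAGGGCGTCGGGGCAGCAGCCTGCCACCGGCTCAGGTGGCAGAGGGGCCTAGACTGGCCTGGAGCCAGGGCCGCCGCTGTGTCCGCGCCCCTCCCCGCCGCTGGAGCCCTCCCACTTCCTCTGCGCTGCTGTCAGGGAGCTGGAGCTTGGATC
Zyx (chr6:42349578-42349827, plus strand): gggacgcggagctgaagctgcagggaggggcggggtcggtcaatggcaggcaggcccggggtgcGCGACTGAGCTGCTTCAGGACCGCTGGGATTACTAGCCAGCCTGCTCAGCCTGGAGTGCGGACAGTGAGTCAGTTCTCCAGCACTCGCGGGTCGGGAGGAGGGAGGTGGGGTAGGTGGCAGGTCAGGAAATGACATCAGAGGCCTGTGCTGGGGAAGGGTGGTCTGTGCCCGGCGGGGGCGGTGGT
Itgam (chr7:128062390-128062639, plus strand): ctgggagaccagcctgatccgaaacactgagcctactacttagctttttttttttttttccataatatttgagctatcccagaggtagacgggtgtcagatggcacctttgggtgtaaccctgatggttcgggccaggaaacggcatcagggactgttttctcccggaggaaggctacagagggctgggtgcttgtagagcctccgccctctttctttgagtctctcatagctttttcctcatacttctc

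The female peak covered 149 of the 250 bases at Itgav and the male peak 234. At Itga8 the female peak covered 79 and the male peak 111. The male-only peak covered 237 of the bases at Itga11, and the female-only peak 186 of those at Zyx. Nuclear receptors of the COUP-TF family bind repeats of the hexamer AGGTCA. In these stretches the hexamer occurred only at Zyx, as AGGTCA at bases 184 to 189 of the printed sequence (chr6:42349761-42349766), under the female-only peak.

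Each peak was given to whichever protein-coding gene body lay closest to its centre, up to 100 kb away. Shared peaks are those where the lists overlap by at least 1 bp, and female-only or male-only peaks are those with no such partner. By this rule 24 of the 38 genes had a peak in either list, where 42.2% of all protein-coding genes did. A female peak was found at 21 genes (36.9% of all genes have one), a male peak at 21 (35.0% of all genes), and a shared peak at 16 (28.2% of all genes). As shares of the 38, these counts are 63.2%, 55.3%, 55.3% and 42.1%. The genes of the group are long, with a median of 63.2 kb against 17.2 kb over all genes, and long genes have peaks more often. Among genes over 44.3 kb, the longest quartile, 15 of 23 members had a shared peak against 41.4% of all such genes, and 19 had a peak in either list against 62.0%. Among genes of 17.2 to 44.3 kb, 1 of 12 had a shared peak against 33.1% of all genes of that length, and 4 had a peak in either list against 49.2%. The members' share thus lay above that of all genes in the longest quartile and below it in the quartile before. No test of the list was made, since its genes were chosen by name with results of these data known.

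**Figure D1:**
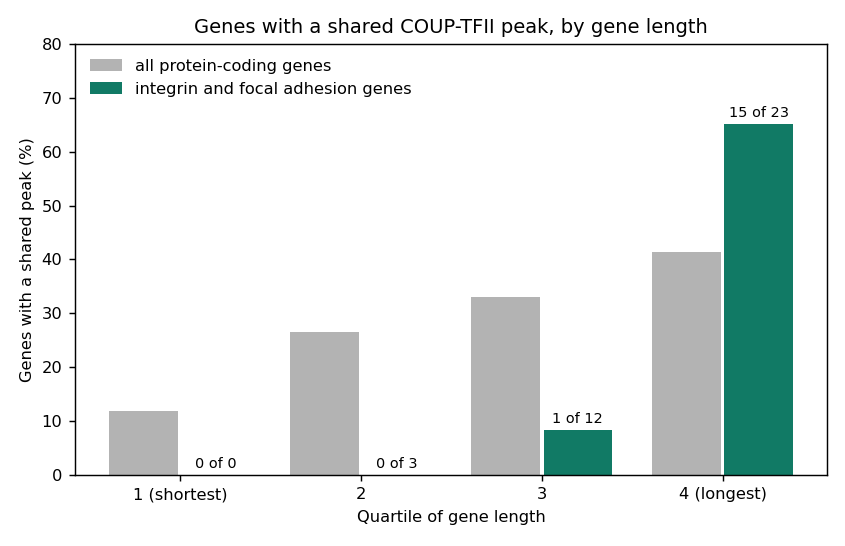
Percentage of genes with a shared COUP-TFII peak (y axis) by quartile of gene length (x axis), for all protein-coding genes (grey) and for the integrin and focal adhesion genes (green, with the number of genes above the bar). In the longest quartile 15 of 23 members had a shared peak, and in the third quartile 1 of 12 did; no member falls in the shortest quartile.

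The 24 genes held 34 female and 32 male peaks at 43 places, of which 23 were shared, 11 female-only and 9 male-only. Shared peaks were 67.6% of the members' female peaks (exact 95% interval 49.5 to 82.6) and 71.9% of their male peaks (53.3 to 86.3). Over all peaks, those given to no gene included, these shares were 67.0% and 76.0%, inside both intervals. At 5 members, Itga8, Itga9, Itgb1, Fermt2 and Actn1, there were 2 or more shared peaks (3.70% of all genes), and with peaks limited to 10 kb Itga8 and Itgb1 kept 1 each, which leaves 3 such genes. All 5 are over 44.3 kb long, and the share of such long genes with 2 or more shared peaks was not taken. A female-only peak was found at 9 members (13.2% of all genes have one) and a male-only peak at 9 (9.55% of all genes). For these sex-only peaks the shares were not taken by gene length. Of the 12 focal adhesion genes 10 had a peak in either list and 7 a shared peak (83.3% and 58.3%). Of the 26 integrin genes 14 and 9 did (53.8% and 34.6%). Over all genes these shares are 42.2% and 28.2%, and in the longest quartile 62.0% and 41.4%. Median length was 70.3 kb for the 12 and 56.4 kb for the 26, and the difference was not tested.

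**Figure D2:**
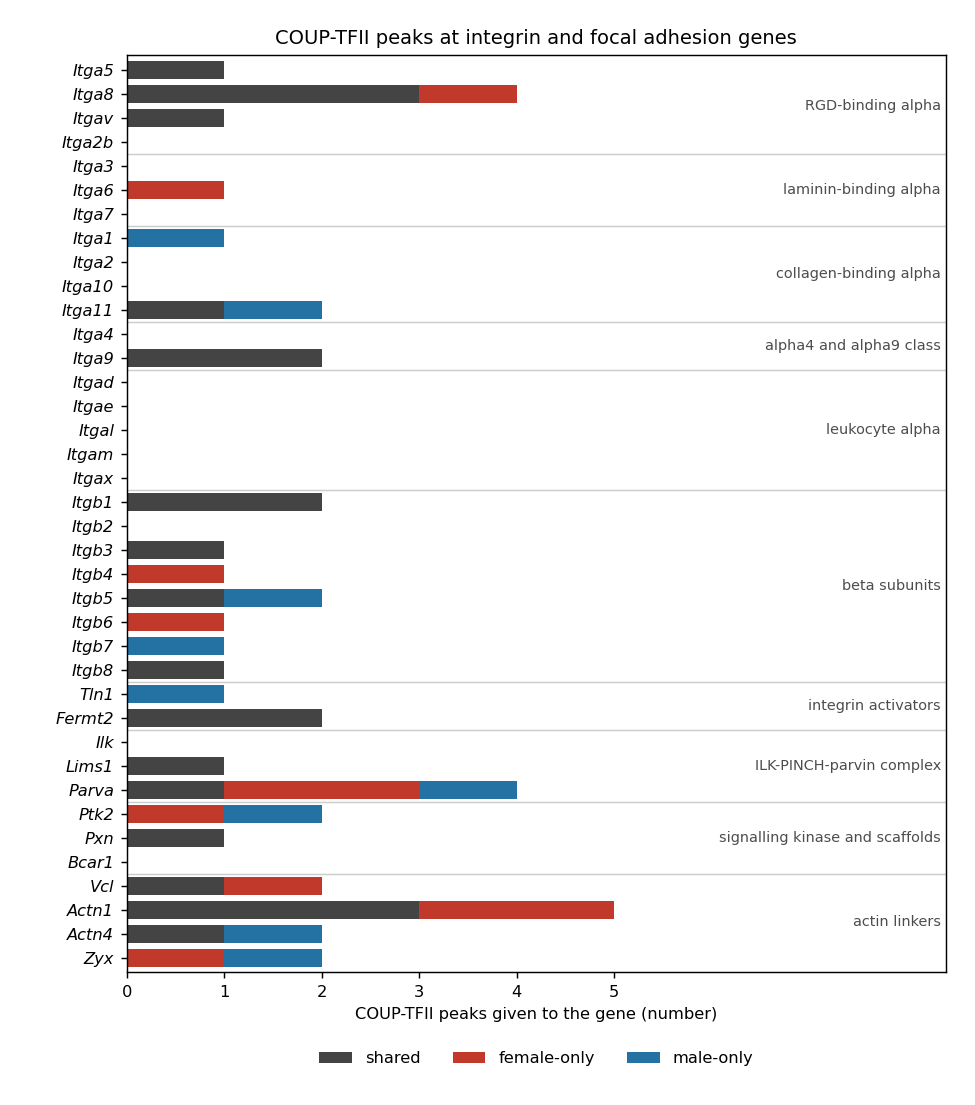
Number of COUP-TFII peaks given to each of the 38 genes (x axis), with genes grouped by role and bars divided into shared (grey), female-only (red) and male-only (blue) peaks. Actn1 had the most peaks, 5, and the 5 leukocyte alpha genes had none.

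The RGD-binding alpha subunits carried shared peaks at 3 of 4 genes: Itga5, Itga8 and Itgav, but not Itga2b, the platelet subunit. Over all genes 28.2% have a shared peak, and 41.4% do in the longest quartile, which holds 2 of these 4 genes. Itga5, which pairs with beta 1 as the main fibronectin receptor, had 1 female peak (chr15:103366334-103366633) and 1 male peak (chr15:103366252-103366551), with centres 82 bp apart. Both lay inside the gene, 308 and 390 bp downstream of its RefSeq start. Itgav, the subunit that pairs with 5 different beta chains, also had 1 peak in each list. The female peak (chr2:83724248-83724547) was centred on the RefSeq start and the male peak (chr2:83724163-83724462) lay 85 bp away.

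Itga8, whose protein pairs with beta 1 and binds nephronectin, and which is known for its part in kidney development, had 4 female and 3 male peaks, the most of any integrin gene. Its shared peak at the gene start (chr2:12301724-12302023 in the female list) was centred 71 bp downstream of the RefSeq start in the female list and 39 bp in the male list. The female centre also lay 627 bp from an end of the noncoding RNA gene E030013I19Rik. The other 3 places lay beyond the 3′ end of the gene: shared peaks at 46.0 kb (chr2:12060484-12060783) and 83.1 kb (chr2:12023368-12023667), and a female-only peak between them at 72.9 kb (chr2:12033537-12033836). No other protein-coding gene lay within 100 kb of these 3 places; the next was Gm34768 at 107 to 144 kb. Npnt, the gene of nephronectin, had no peak in either list.

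Collagen-binding and related alpha genes were mixed. Itga11, a collagen receptor of fibroblasts, had a shared peak deep inside the gene (chr9:62732740-62733039), 55.0 kb downstream of the start, and a male-only peak on the promoter (chr9:62677618-62677917), centred 88 bp upstream of the start. The nearest female peak to that male-only peak was the one inside the gene, 55.1 kb away. Itga1 had 1 male-only peak (chr13:115090589-115090888), 11.2 kb inside the gene. It lay 580 bp from an end of Pelo, a gene nested in Itga1, and 989 bp from the centre of the nearest female peak, which belongs to a shared peak given to Pelo. Itga2 and Itga10 had none.

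Itga9, a subunit that binds tenascin and other ligands, had 2 shared peaks, at chr9:118607040-118607339 and chr9:118629736-118630035. The first lay 480 bp inside the 5′ end of the annotated gene and the second 23.2 kb inside. The start that the promoter table gives for Itga9 lies downstream, 105 kb from the first peak. Itga4, its closest relative, had no peak.

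A peak in either list was found at 1 of 3 laminin-binding and 0 of 5 leukocyte alpha genes, beside 42.2% of all genes. The longest quartile, where this share is 62.0%, holds 1 of the 3 and 2 of the 5, and the difference was not tested. Of Itga3, Itga6 and Itga7, only Itga6 had a peak, female-only and 26.9 kb inside the gene (chr2:71813650-71813949). The 5 leukocyte alpha genes Itgad, Itgae, Itgal, Itgam and Itgax had no peak in either list, nor did Itgb2, the beta partner of 4 of them. Itgb7, the partner of Itgae, had a male-only peak. A shared peak lies inside Itgae at chr11:73138049-73138348, but also inside Haspin, to which it was given. A gene missing from both lists may still have been bound too weakly to be called, which positions alone do not show.

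Of the 8 beta genes, 7 had a peak in either list and 4 a shared one, beside 42.2% and 28.2% of all genes. The longest quartile, where these shares are 62.0% and 41.4%, holds 5 of the 8. Itgb1, the partner of most alpha subunits, had 2 shared peaks. The first (chr8:128686018-128686317) lay 513 bp downstream of the start. The second (chr8:128654551-128654850) lay 31.0 kb upstream, with female and male centres 3 bp apart, the smallest offset among the members. Itgb8, whose protein pairs with alpha v and activates latent TGF-beta, had 1 shared peak 549 bp upstream of its start (chr12:119238676-119238975). Itgb3, best known in platelets and osteoclasts, had 1 shared peak outside the gene at 8.74 kb (chr11:104599107-104599406), with centres 185 bp apart. Itgb5 had 1 shared peak (chr16:33891967-33892266), 62.5 kb downstream of its start, and a male-only peak (chr16:33840085-33840384) 10.6 kb downstream.

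Itgb4, Itgb6 and Itgb7 had sex-only peaks and no shared peak. Itgb6, an epithelial partner of alpha v, had a female-only peak 7.74 kb upstream of its start (chr2:60730189-60730488), and the nearest male peak was 232 kb away. Itgb4, which pairs with alpha 6 in hemidesmosomes, had a female-only peak inside the gene (chr11:116005456-116005755), 2.81 kb from one gene end and 2.75 kb from an end of Galk1. Itgb7, a lymphocyte subunit, had a male-only peak inside the gene (chr15:102224425-102224724).

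Set out by the known pairings of the subunits, a list of 24 alpha-beta pairs written after the counts were known, 8 pairs had a shared peak at both genes. These were beta 1 with alpha 5, alpha 8, alpha 9, alpha 11 and alpha v, and alpha v with beta 3, beta 5 and beta 8. All 8 pairs contain beta 1 or alpha v, so they are not independent of each other, and no share over other pairs of genes was taken. All 5 partners of alpha v had a peak in either list, and 4 of them a shared one. Of the 12 partners of beta 1, 7 had a peak and 5 a shared one, and of the 4 partners of beta 2 none had a peak. Over all genes these shares are 42.2% for a peak and 28.2% for a shared one, and in the longest quartile 62.0% and 41.4%. All 5 partners of alpha v are in that quartile. Of the partners of beta 2, Itgam is in it, and Itgad, Itgal and Itgax are shorter. The part of gene length in these counts was not tested.

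The activators of integrins had peaks at their starts. Fermt2, the kindlin of mesenchymal cells, had 2 shared peaks. The first lay 487 bp upstream of the RefSeq start (chr14:45530403-45530702) and the second 4.94 kb inside the far end of the gene (chr14:45463586-45463885). The first also lay 330 bp from an end of the noncoding RNA gene Gm46452. Tln1 had 1 male-only peak (chr4:43562027-43562326), 407 bp downstream of its start and 482 bp from an end of the neighbouring gene Creb3. The nearest female peak was 16.6 kb away.

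In the complex of ILK, PINCH and parvin, Lims1 had 1 shared peak upstream of its start, with the female centre at 552 bp (chr10:58322846-58323145) and the male centre at 330 bp (chr10:58323068-58323367), 222 bp apart. Parva had 4 places. At its gene end a female-only peak (chr7:112427678-112427977) and a male-only peak (chr7:112428002-112428301) had centres 324 bp apart and did not overlap. A shared peak (chr7:112479141-112479440) lay 51.6 kb inside the gene, and another female-only peak lay 23.8 kb outside it (chr7:112615340-112615639). Ilk was given no peak, but a female-only peak (chr7:105736949-105737248) lies inside the gene, 508 bp downstream of its first RefSeq start and 373 bp downstream of its second. That peak also lies inside Rrp8, which overlaps Ilk and whose end is nearer.

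Among the kinase and scaffolds, Pxn had 1 shared peak inside the gene (chr5:115506335-115506634), 14514 bp from an end. Ptk2 had a male-only peak 467 bp inside a gene end (chr15:73423204-73423503) and a female-only peak outside the gene at 19.4 kb (chr15:73443061-73443360), with centres 19.9 kb apart. Bcar1 had none.

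All 4 actin linkers had peaks in both lists, and 3 of them a shared peak, beside 36.9% of all genes with a female, 35.0% with a male and 28.2% with a shared peak. The longest quartile, where 41.4% of genes have a shared peak, holds 3 of the 4. Actn1, a non-muscle alpha-actinin of stress fibres, had 5 female and 3 male peaks, the most of the 38 genes. Its shared peaks lay 559 bp downstream of the start (chr12:80259655-80259954), 30.1 kb downstream (chr12:80230073-80230372) and 20.8 kb beyond the 3′ end (chr12:80146589-80146888). The last had centres 240 bp apart, the widest offset among the members, where shared peaks had a median offset of 39 bp against 33 bp over all shared peaks. Its female-only peaks lay 260 bp upstream of the start (chr12:80260474-80260773) and 953 bp inside the 3′ end (chr12:80168346-80168645). From the centre of the one upstream of the start, the nearest male peak was 824 bp away, the male part of the shared peak there.

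Actn4 had a shared peak 43984 bp downstream of its start (chr7:28918199-28918498) and a male-only peak 233 bp downstream (chr7:28961950-28962249). Given by the nearest gene end, the shared peak goes to another gene. Vcl had a shared peak at its start, centred 167 bp downstream in the female list (chr14:20929416-20929715) and 123 bp in the male list, and a female-only peak 19.4 kb upstream (chr14:20909835-20910134). Zyx had a female-only peak centred 37 bp upstream of its start (chr6:42349642-42349941) and a male-only peak 317 bp downstream (chr6:42349996-42350295). Their centres were 354 bp apart, so at Zyx, as at the end of Parva, both lists had a peak within 1 kb without sharing a base.

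**Figure D3:**
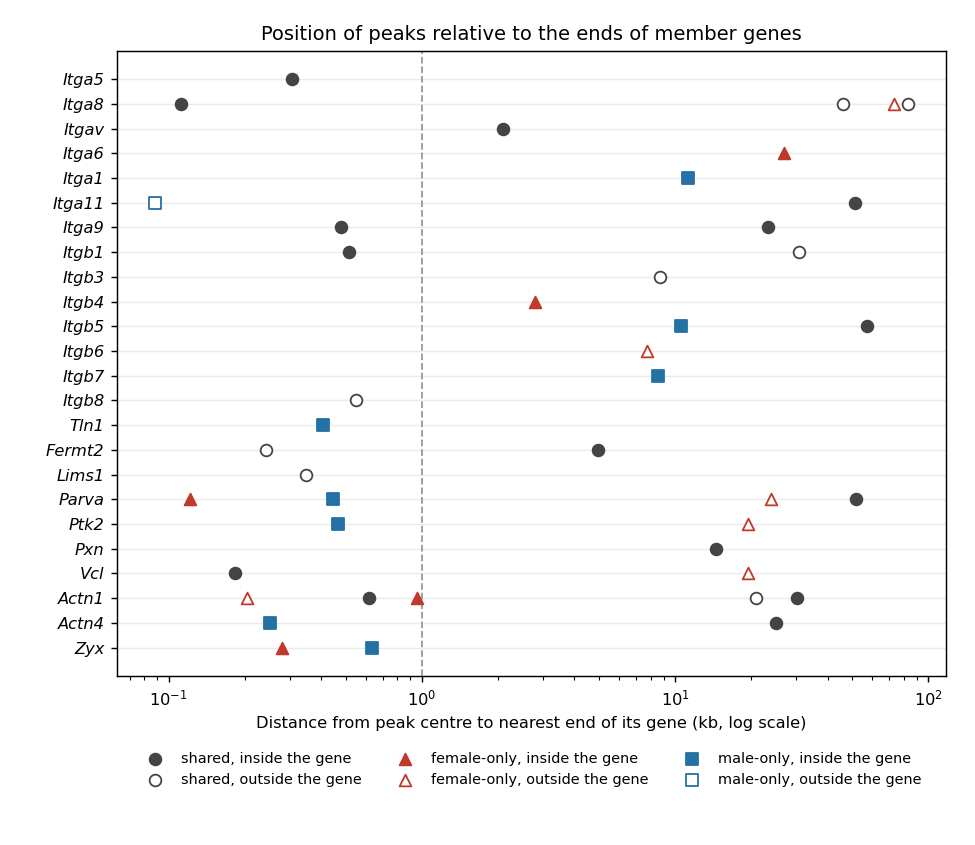
Distance from the centre of each of the 43 peaks to the nearest end of its gene (x axis, kb, log scale), by gene, with shared (circles), female-only (triangles) and male-only (squares) peaks; filled symbols lie inside the gene, open ones outside, and the dashed line marks 1 kb. Left of the line are 19 peaks, and the farthest peaks outside a gene are those of Itga8, at up to 83.1 kb.

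Of the 43 peaks, 19 lay within 1 kb of an end of their own gene, 14 farther inside and 10 farther outside. The promoter table gives strand for 27 of the 38 genes, and 15 of the 19 lay at the 5′ end. The peak at the 3′ end of Actn1 was the exception, and for 3 at Parva and Ptk2 the end was not known. Counting the ends of annotated genes of any kind, 20 peaks lay within 1 kb of one, which is 46.5% (exact 95% interval 31.2 to 62.3) against 58.8% of all peaks in either list. Unlike the members' peaks, all peaks include those given to no gene. For shared peaks the share was 39.1% (19.7 to 61.5) beside 67.5% of all shared peaks and 64.4% of the 45 shared peaks of the other adhesion genes described at the end. The members' median length is 63.2 kb against 17.2 kb over all genes, and the part of gene length in this share was not tested. For female-only peaks it was 36.4% (10.9 to 69.2) against 40.1%, and for male-only peaks 77.8% (40.0 to 97.2) against 60.1%. The shared peaks farther from an end were those at Itga8, Itga9, Itga11, Itgb1, Itgb3, Itgb5, Fermt2, Parva, Pxn, Actn1 and Actn4, and at Itgav, where the peak on the RefSeq start is 2.09 kb inside the annotated gene.

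Measured from RefSeq starts in place of gene ends, 14 of the 27 genes in the promoter table had a peak of either list centred within 1 kb of a start (37.0% of the 17492 protein-coding genes in that table do). A shared peak lay there at 9 of 27 (26.0% of all): Itga5, Itga8, Itgav, Itgb1, Itgb8, Fermt2, Lims1, Vcl and Actn1. A female-only peak did so at 3 (Ilk, Actn1 and Zyx, 7.11% of all) and a male-only peak at 4 (Itga11, Tln1, Actn4 and Zyx, 7.16% of all). These peaks are counted by position, so the peak at Ilk that was given to Rrp8 is among them.

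**Figure D4:**
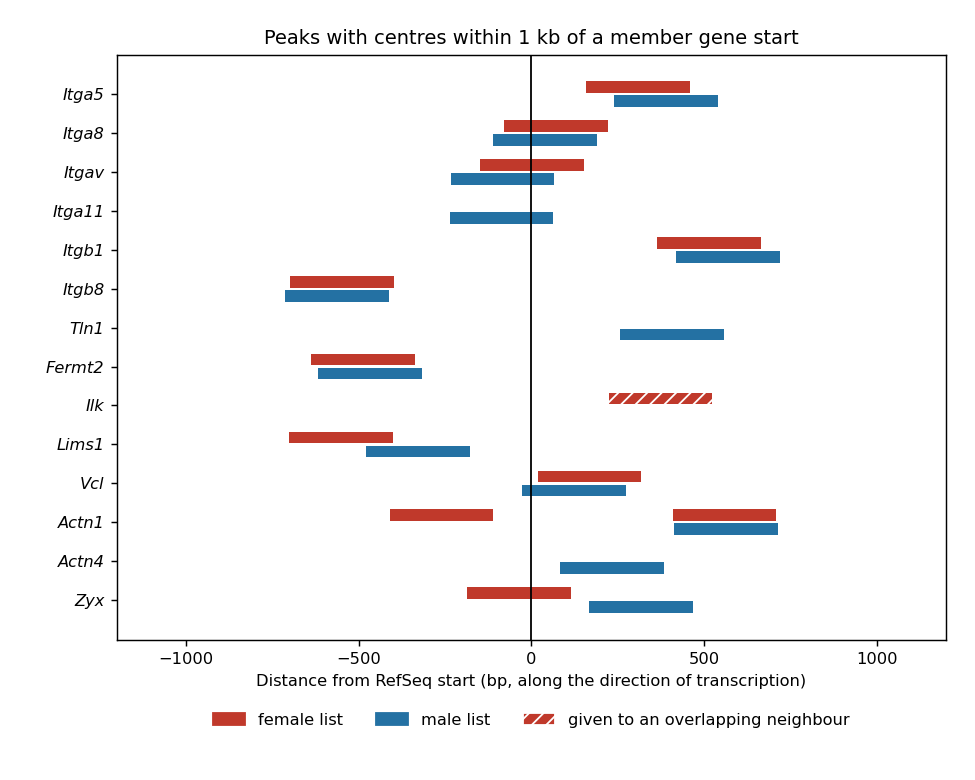
Peaks of the female (red) and male (blue) lists centred within 1 kb of the RefSeq start of 14 genes, drawn to scale by distance from the start (x axis, bp, transcription to the right); the hatched peak at Ilk was given to Rrp8. Peaks at Itga8 and Itgav of both lists span the start, those at Itgb8, Fermt2 and Lims1 lie upstream, and at Zyx the female and male peaks are side by side.

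Gene starts with a peak had a higher median CpG ratio. This ratio, the observed number of CpG dinucleotides over that expected from the C and G content, was taken over the 300-base promoter window of RefSeq, from 250 bases before to 50 after the start, with the highest window where a gene has several. Its median was 0.753 for the 14 genes with a peak within 1 kb of a start (range 0.465 to 1.02) and 0.420 for the 13 without (0.216 to 0.956). Among all genes of the table, divided in the same way, the medians were 0.837 and 0.326, a difference in the same direction. Of the members without such a peak, the lowest were Itgb7 (0.216), Itga2b (0.266), Itgax (0.275), Itga10 (0.308), Itgam (0.316) and Itga4 (0.322). Bcar1 (0.956) and Itga3 (0.768) were exceptions, with CpG-rich windows and no peak.

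**Figure D5:**
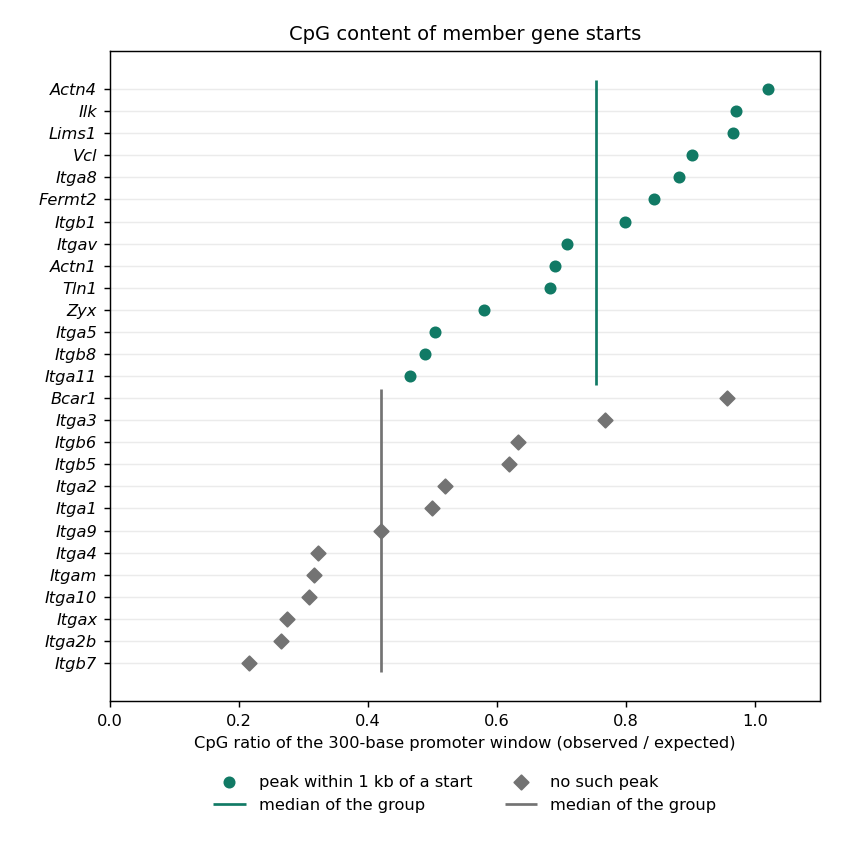
CpG ratio of the promoter window (x axis, observed over expected) for the 27 genes in the promoter table, with a peak of either list within 1 kb of a start (green circles) or without one (grey diamonds); vertical lines are group medians, 0.753 and 0.420. The groups overlap: Itga11 lies at 0.465 with a peak and Bcar1 at 0.956 without.

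The hexamer AGGTCA, on either strand, was present in 1 of the 33 promoter windows of the 27 genes, that of Zyx. It was in 14.7% of the 21263 windows of protein-coding genes. A direct repeat, 2 copies of AGGTCA on the same strand with 1 base of any kind between them, was in none of the members' 33 windows and in 0.0470% of all. With a motif this rare, none in 33 windows was the likely count for any genes and says nothing particular about the members. These counts describe letters in 300-base windows of the reference. The sequence under most of the peaks was not analysed here.

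In a list of 77 other genes of cell adhesion, among them signalling proteins, integrin-binding proteins and the matrix ligands Npnt and Svep1, 52 had a peak in either list (67.5%) and 35 a shared peak (45.5%). These shares are 63.2% and 42.1% for the members and 42.2% and 28.2% for all genes, and the median length of the 77 genes is 47.2 kb. Those with most shared peaks were Lpp, a zyxin relative, with 3 shared of 5 female and 4 male peaks, Tns3, a tensin, with 3 shared of 4 female and 5 male peaks, and Arhgef7, Asap1, Cd47, Grb2, Kank3 and Ptpn12 with 2 shared peaks each. Another 27 genes had 1 shared peak each, among them Ajuba and Arhgap26, the first by symbol.

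That list holds 18 close relatives of the focal adhesion genes, which were set apart after their values were seen. A peak in either list was found at 6 of them and a shared peak at 4, beside 10 and 7 of the 12 focal adhesion genes, and the difference was not tested. Over all genes the shares are 42.2% and 28.2%, and in the longest quartile 62.0% and 41.4%. Among the relatives only Tln2, Parvb, Ptk2b, Nedd9, Actn2 and Lpp are in that quartile. Of the focal adhesion genes all but Tln1, Ilk, Bcar1 and Zyx are in it. The part of gene length in the contrast was not tested. Fermt2 had 2 shared peaks, while Fermt1, the kindlin of epithelia, and Fermt3, that of blood cells, had no peak. Parva had peaks but Parvb and Parvg had none, and Lims1 but not Lims2 had one. Actn1 and Actn4 had shared peaks, whereas Actn2, of muscle, had 1 male-only peak and Actn3 none. Neither Ptk2b nor the paxillin relatives Tgfb1i1 and Lpxn had a peak. In the talin, zyxin and p130Cas families a relative had a shared peak and the member had none. Tln2 had 2 female and 4 male peaks, of which 1 was shared, beside the single male-only peak of Tln1. Zyx had no shared peak, while its relatives Lpp and Ajuba had 3 and 1, Limd1 had 1 female-only peak and Trip6 had none. Among relatives of Bcar1, itself without a peak, Efs had 1 shared peak and Nedd9 and Cass4 had none.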

How the data were processed

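ChIP-seq of COUP-TFII was measured in XX and XY mesonephroi, 2 samples each, grouped by title. The authors deposited, for each sex, 1 list of peak positions named in the labels of both samples. Their values are positions (chromosome, start and end, in 3 columns), with no score. Per the submitters' processing notes the build was mm10 and the tools were HOMER 4.10.3, Bowtie 1.2, bedtools 2.24.0, cutadapt and Picard, with no roles stated. For the peak threshold and the handling of replicates, the method is not given in the sources used here. Input and signal tracks are not used here.

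Computed here, with Python 3.11.15 and pandas 2.3.3: coordinates were counted from 1. Each peak centre was given to the nearest protein-coding gene body of RefSeq for GRCm38.p6 (49943 genes, 21887 protein-coding) within 100 kb, with distance 0 inside a gene and ties to the nearer gene end. A gene was found for 93.5% of the female list and 95.3% of the male list. Shared peaks (7483, the same number by bedtools 2.31.1) had at least 1 bp in common and carry female coordinates. Starts, strands and promoter sequences came from RefSeq's table for 27 of the 38 genes, matched by symbol. Shares have exact (Clopper-Pearson) 95% intervals. In simulated data the gene found by a separate search under the same rule was returned for 200 of 200 peaks. Whether a peak was shared was returned for 200 of 200. Both runs check the code and not the rule itself. The peaks of the gene step lay at gene midpoints, so assignment outside genes and the 100 kb limit were not tested.

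Every member with a peak is named, and of the other adhesion genes the 10 with most shared peaks, with ties by symbol; others are named as examples. The members and lists were chosen with earlier results of these data known. Alternatives were other definitions of sharing, distances of 10 and 500 kb, the nearest gene end, every gene within 10 kb, gene ends within 2.5 kb or of protein-coding genes only, a shorter motif and, chosen after seeing the data, leaving out peaks within 1 kb of another protein-coding gene's end. The design planned motif counts in peaks, and promoter windows were used in their place.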

Additional observations from a re-analysis of the deposited data

How the results depend on the processing

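The numbers of members with a female, male or shared peak, of their peaks by class and of peaks near gene ends stayed within 1.5 times those reported under each alternative that was run. With peaks limited to 10 kb, 3 members in place of 5 had 2 or more shared peaks, since Itga8 kept 1 of 3 and Itgb1 1 of 2. GGTCA in place of AGGTCA was in the promoter windows of 10 of the 27 genes in place of 1. Counted by window, 11 of the members' 33 held this shorter motif, beside 39.4% of all windows. The number of members with a shared peak was 16 as reported. It was 13 when overlap had to reach 50% of each peak or centres had to lie within 100 bp (Itgb3, Lims1 and Parva lost theirs). With peaks within 1 kb counted as shared it was 17 (Zyx gained 1, Parva had 2 and Actn1 had 4). It was 17 within 500 kb (Itga6 gained), 15 by the nearest gene end (Actn4 lost its own) and 20 when a peak counted for every gene within 10 kb. By the nearest gene end Itga1 and Itgb4 also lost their sex-only peaks. Without peaks within 1 kb of another protein-coding gene's end, chosen after seeing the data, Itga1 and Tln1 lost theirs. The depth is unknown, so a missing peak is no measure of absence. A stricter threshold and leaving out a replicate were not run, since the lists carry no scores and 1 list stands for both replicates. No paired analysis was possible because the lists carry no values per replicate.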

Other observations

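Genes whose symbols begin like those of the beta subunits but which encode other proteins were left out of the members. Itgb1bp1, which encodes a protein that binds the beta 1 tail and holds the receptor inactive, had 1 shared peak. Itgb3bp had 1 female-only and 1 male-only peak. Itgb1bp2, Itgbl1 and Itgb2l had none.

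At the 100 kb limit, the farthest peak given to a member was the shared peak 83.1 kb outside Itga8. The nearest peak to a member that had no gene within 100 kb was a shared peak 114 kb outside Itga6 (chr2:71673147-71673446 in the female list), and the next was 168 kb outside Itga4 (chr2:79087750-79088049). Itga6 had 1 female-only peak otherwise, and Itga4 had none.

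Several peaks close to members were given to neighbours. A shared peak 1.85 kb outside Pxn lies inside Sirt4, and one 4.19 kb outside Itgb4 lies inside Galk1. A male-only peak 6.07 kb outside Itgav lies inside Fam171b, and a female-only peak 5.13 kb outside Itga5 lies inside Zfp385a.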
